A study of Salmo salar with 12 samples.

Results

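Pituitary-high tiles were 1 kb windows of the Atlantic salmon genome in which CpG methylation was at least 25 percentage points (points below) higher in the pituitary than in both the ovary and the liver. A tile was considered when at least 3 CpG cytosines in it were listed in all 12 libraries, its level in a library was the share (%) of reads over those cytosines that were methylated, and a tissue level was the mean of 4 libraries. Of 495114 such tiles, 1029 (0.208%) met the rule. The libraries were whole-genome bisulfite libraries of female broodstock in the fourth year of life, kept as a single management group and moved to a long-light photoperiod to start sexual maturation. They covered the pituitary, the ovary and the liver at T4, the last sampling under the long light, and at T1, immediately before it, with 2 libraries from separate fish per tissue and time point. All fish of T4 had the light treatment and none of T1 had it, so the treatment, the season and the growth of the fish between samplings cannot be told apart. Part of the libraries of different tissues came from the same fish, among them both pairs of pituitary and liver libraries at T1.

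In vertebrates, cytosines followed by guanine are methylated over most of the genome, and the exceptions are mainly CpG-rich promoters, enhancers and other regulatory sequence, whose low-methylated state often differs between tissues. A level between the extremes in a bulk tissue may come from a mixture of cells with methylated and unmethylated copies, and in these libraries a change in the mixture and a change within cells cannot be told apart. The pituitary is a small gland of several hormone-producing cell types that releases the gonadotropins acting on the ovary, the ovary is a mixture of germ and somatic cells, and the liver is dominated by hepatocytes. No gene was assigned to a tile and no sequence is printed, because no genome or annotation of the assembly of the files (ICSASG_v2) was used here. For the same reason the tissue labels were not checked against marker genes.

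The libraries held 9063730 to 12056957 cytosines and 159785200 to 224866844 reads over cytosines. The median coverage was 14 or 15 reads in each. It was taken over the listed cytosines, which all have at least 10 reads, so it does not measure the depth of a library. Replicate 1 of the pituitary at T1 stood apart, since it lists no cytosine above 150 reads while the highest coverage in the others was 4730 to 7395 reads. Without it the rule kept 1054 tiles, of which 948 were among the 1029. The fish named in the titles and in the file names of the ovary libraries at T1 differ, so no pairing by fish was used for them.

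The pituitary-high tiles had levels below those of all tiles in every tissue, least so in the pituitary. Their mean level was 74.8% ± 0.697 in the pituitary, against 37.0% ± 4.89 in the ovary and 36.1% ± 1.42 in the liver (SD of the library means, n = 4 libraries each). Over all tiles the means were 79.4% ± 0.369 in the pituitary, against 77.9% ± 0.523 in the ovary and 81.8% ± 0.0732 in the liver (SD, n = 4 each). The pituitary level at the chosen tiles therefore lay 4.60 points under its mean over all tiles, whereas the ovary lay 40.9 points and the liver 45.7 points under theirs. These values chose the tiles and are given as a description.

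The library means showed the same. They were 74.2% and 74.3% in the pituitary at T4 and 74.8% and 75.7% at T1. In the ovary they were 38.2% and 43.0% at T4 and 35.6% and 31.3% at T1, and in the liver 34.7% and 36.0% at T4 and 35.6% and 38.1% at T1. The 4 pituitary libraries lay within 2 points of each other, while the ovary libraries spread more widely and did not overlap between the time points. The liver libraries overlapped between T4 and T1.

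**Figure D1:**
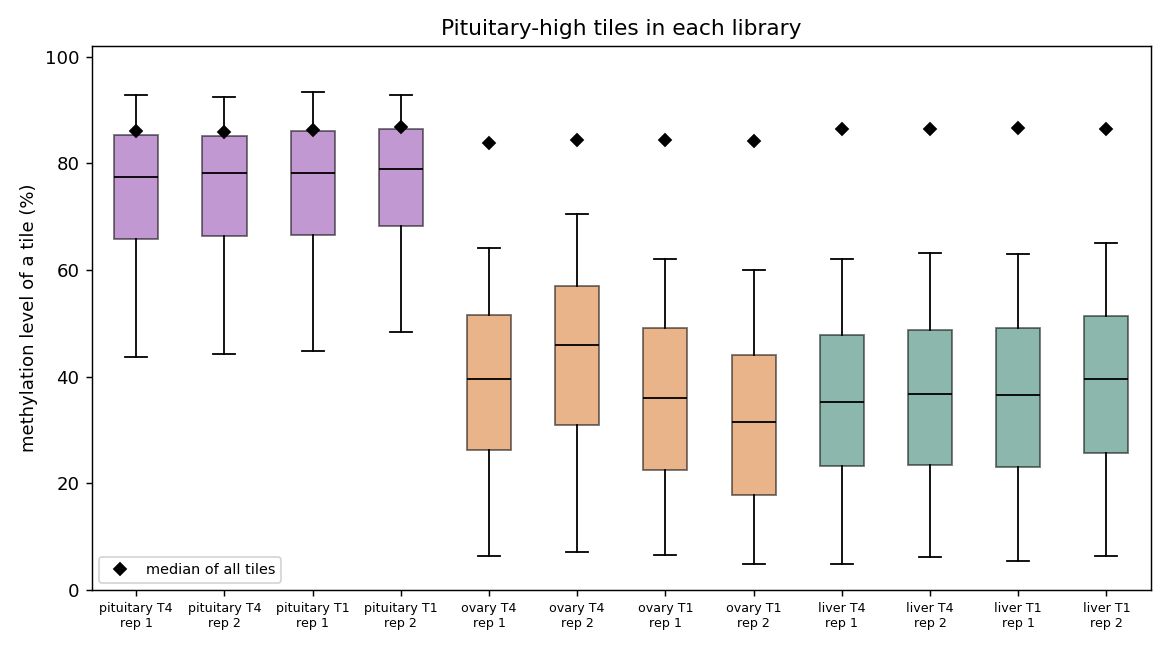
Methylation level (%) of the 1029 pituitary-high tiles in each library. Boxes span the quartiles with the median as a line, whiskers the 5th to 95th percentile, and diamonds mark the median of all 495114 tiles. The medians of the pituitary libraries lie between 77.4% and 78.8%, those of the ovary and liver libraries between 31.5% and 45.9%.

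The gap, which is the pituitary level minus the higher of the ovary and liver levels, had a median of 31.4 points and reached 76.8 points. It was at least 30 points in 587 tiles, at least 40 in 180, at least 50 in 46 and at least 60 in 9. In 988 tiles each of the 4 pituitary libraries lay above each of the 8 others, and in 41 the libraries overlapped. Over all tiles this separation was seen in 3.07%, and nothing is read from the comparison since the rule used the same levels. The ovary level was above the liver level in 534 of the tiles and below it in 495. The ovary and the liver lay within 10 points of each other in 660 tiles (64.1%), with a median distance of 7.02 points, and differed by more than 25 points in 46. Across the tiles the ovary and liver levels had a Pearson correlation of 0.71, a description over 1029 tiles that share libraries and a bounded scale.

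Most tiles were partly rather than fully unmethylated in the ovary and the liver. The higher of the ovary and liver levels was under 10% in 55 tiles, from 10% to under 30% in 188, from 30% to under 50% in 448 and at least 50% in 338. The mean pituitary level was 48.1% in the class under 10%, 60.1% in the next, 75.4% in the third and 86.3% in the highest class. Such an order is partly fixed by the rule, which needs at least 25 points above the other tissues. Of the 55 tiles with the lowest ovary and liver levels, 34 had under 50% in the pituitary and none had 85% or more. The pituitary level itself was under 50% in 72 tiles, 50% to under 70% in 233, 70% to under 85% in 466 and at least 85% in 258.

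The threshold of 25 points cut through a continuous range. The 3 tiles just inside it were ssa05:47131001-47132000, with 84.4% in the pituitary, against 58.6% in the ovary and 59.4% in the liver, ssa09:39363001-39364000, with 69.7% in the pituitary, against 44.7% in the ovary and 43.6% in the liver, and ssa01:30961001-30962000, with 86.8% in the pituitary, against 61.8% in the ovary and 61.1% in the liver. Just outside it were ssa05:64722001-64723000, with 77.4% in the pituitary, against 50.7% in the ovary and 52.4% in the liver, ssa21:27490001-27491000, with 78.8% in the pituitary, against 42.1% in the ovary and 53.8% in the liver, and a tile of the unplaced scaffold AGKD04017073.1 (bases 3001-4000), with 84.9% in the pituitary, against 36.8% in the ovary and 59.9% in the liver. At 20 points 1749 tiles qualified and at 30 points 587.

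Which tiles were the clearest cases was read from the 20 with the largest gap among the 441 with at least 5 common cytosines and at most 3 times the median coverage, with 1 tile kept per set of tiles within 10 kb of each other. In each of the 20 every pituitary library lay above every ovary and liver library. The ovary and the liver were both under 10% in 6 of them and both under 20% in 12, and the pituitary was at 80% or more in 5. Positions are those of ICSASG_v2, counted from 1, and the number of reads behind a single library value was 58 to 454 per tile. The 95% Wilson intervals of single library values at these tiles and at the longest runs had a median half-width of 6.47 points and at most 14.4 points, and they cover counting error only.

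The largest gap of the 20 was at ssa14:72504001-72505000, with 5 cytosines within 142 bp. The pituitary had 67.3% and 75.2% at T4 and 71.2% and 89.0% at T1. The ovary had 1.09% and 0% at T4 and 0% and 7.62% at T1, and the liver had 0% in both libraries at T4 and 0% and 0.926% at T1. The tile was thus close to unmethylated in the ovary and liver libraries and mostly methylated in the pituitary, with means of 75.7% ± 9.48 in the pituitary, against 2.18% ± 3.66 in the ovary and 0.231% ± 0.463 in the liver (SD, n = 4 each). Its single cytosines ran from 67.5% to 82.5% in the pituitary, from 0% to 3.82% in the ovary and from 0% to 1.09% in the liver, so that no cytosine departed from the pattern. A library at 0% here allowed a level of up to 2.29% to 3.45%, the share that 3 methylated reads would make of its reads.

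The tile ssa01:83768001-83769000 rested on 15 cytosines over 722 bp and 225 to 452 reads per library. The pituitary had 65.7% and 69.8% at T4 and 69.0% and 75.7% at T1. The ovary had 4.00% and 3.86% at T4 and 1.74% and 2.16% at T1, and the liver had 3.23% and 6.76% at T4 and 2.78% and 5.12% at T1. All libraries of the ovary and the liver were under 7%, and the tile had the most common cytosines of the 20. The cytosines were less even here, since pituitary levels ran from 13.1% to 89.6% over the tile, against 0% to 13.6% in the ovary and 0% to 15.0% in the liver.

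At ssa28:21366001-21367000 the pituitary had 69.7% and 62.8% at T4 and 71.4% and 70.7% at T1. The ovary had 3.83% and 4.97% at T4 and 5.86% and 5.88% at T1, and the liver had 6.71% and 9.03% at T4 and 6.70% and 5.95% at T1. The 10 cytosines of this tile spanned 640 bp, and the spread between the 4 libraries of a tissue was 3.97 points (SD) or less. The means of T4 and T1 differed by at most 4.84 points in any tissue, although the libraries of the 2 time points did not overlap.

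The tile ssa23:27990001-27991000 had a higher level in every tissue. The pituitary had 84.2% and 86.1% at T4 and 85.4% and 94.4% at T1, the ovary had 34.5% and 41.1% at T4 and 20% and 12.6% at T1, and the liver had 20% and 35.4% at T4 and 23.9% and 30.4% at T1. The ovary did not overlap between the time points here. At ssa25:16110001-16111000 the pituitary had 74.3% and 80.4% at T4 and 66.1% and 79.5% at T1. The ovary had 2.13% and 15.8% at T4 and 8.73% and 5.38% at T1, and the liver had 17.8% and 16.7% at T4 and 9.74% and 16.2% at T1. One of its 5 cytosines reached 43.1% in the liver, where the lowest stood at 4.04%.

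Of the remaining 15 tiles, ssa14:36215001-36216000, ssa03:9655001-9656000 and ssa23:17201001-17202000 were also under 10% in both the ovary and the liver. At ssa14:36215001-36216000 the means were 63.8% ± 5.48 in the pituitary, against 4.37% ± 1.84 in the ovary and 1.15% ± 1.75 in the liver (SD, n = 4 each). At ssa03:9655001-9656000 they were 66.9% ± 5.30 in the pituitary, against 3.52% ± 3.63 in the ovary and 9.67% ± 3.77 in the liver (SD, n = 4 each). At ssa23:17201001-17202000 the pituitary held at 54.8% ± 0.900, with all 4 libraries between 53.9% and 55.8%, against 3.33% ± 1.59 in the ovary and 3.64% ± 6.28 in the liver (SD, n = 4 each). The pituitary mean of the last tile was the lowest of the 20.

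Intermediate levels in the ovary and liver were seen at ssa16:10951001-10952000 (75.6% in the pituitary, against 17.1% in the ovary and 9.26% in the liver), ssa20:51576001-51577000 (68.9%, 13.6% and 14.9% in the same order of tissues) and ssa20:77684001-77685000 (68.4%, 15.0% and 10.5%). They were also seen at ssa28:21989001-21990000 (68.4%, 16.7% and 17.2%) and ssa16:71288001-71289000 (64.9%, 15.0% and 6.79%). Higher levels outside the pituitary were seen at ssa15:82855001-82856000 (82.3%, 27.4% and 29.5%), ssa18:30227001-30228000 (82.3%, 26.0% and 29.6%), ssa11:31642001-31643000 (77.7%, 25.1% and 13.9%) and ssa12:64703001-64704000 (80.9%, 28.6% and 24.7%). The others of this kind were bases 9001-10000 of the unplaced scaffold AGKD04015037.1 (78.0%, 26.4% and 18.8%), ssa08:21553001-21554000 (86.0%, 35.5% and 31.9%) and ssa28:22890001-22891000 (76.9%, 26.3% and 23.5%). Across the 20, both ovary libraries of T4 lay above both of T1 in 8 tiles, beside 20.1% of all tiles, and below both in 4, beside 17.4%. In the pituitary T4 lay above T1 without overlap in 1 tile, beside 14.2% of all tiles, and below it in 5, beside 20.2%. A test of T4 against T1 described further on was passed by 2 of the 20, beside 0.542% of all tiles.

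**Figure D2:**
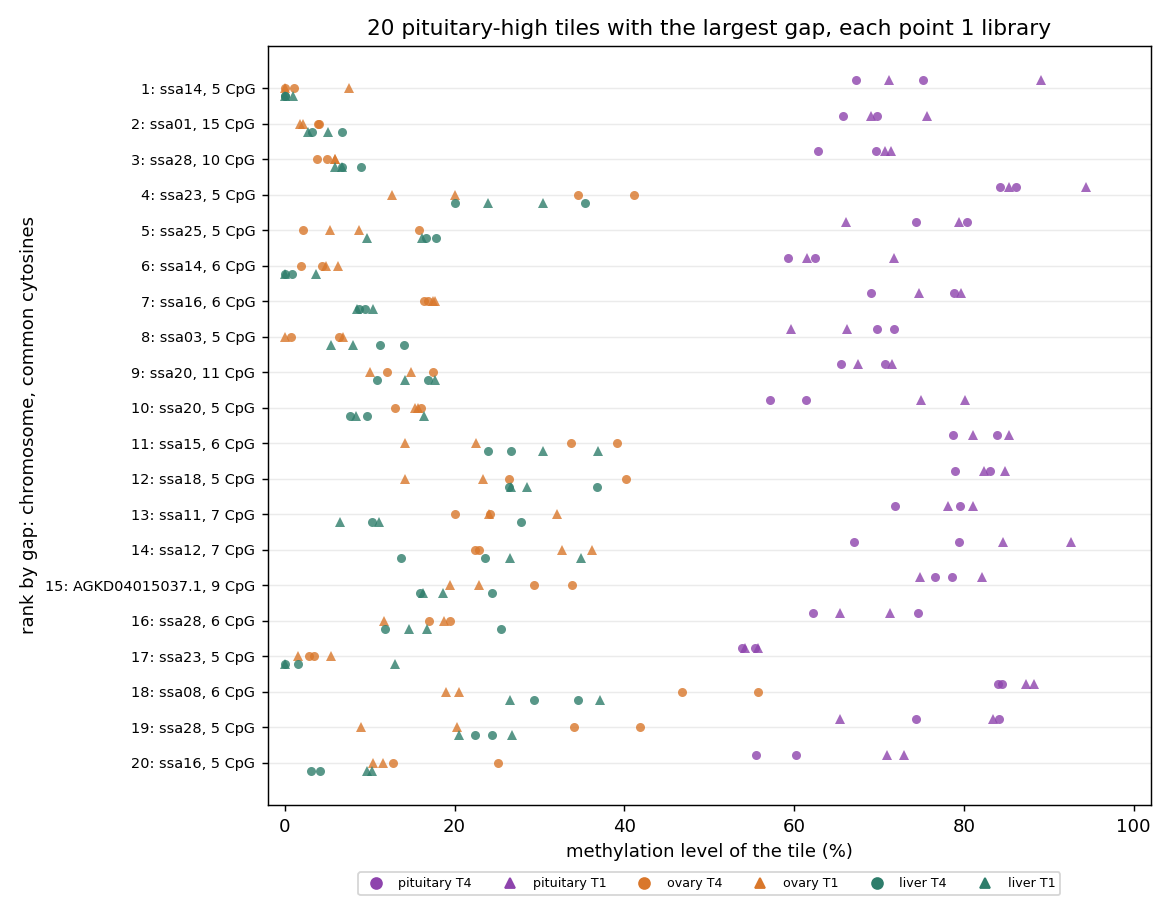
Methylation level (%) of the 20 named pituitary-high tiles, in order of the gap from the top, with 1 point per library (circles T4, triangles T1) and the chromosome and number of common cytosines beside each rank. In every tile the 4 pituitary points lie right of all ovary and liver points.

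The rule chose the tiles by the same levels that describe them, so the tissue difference was tested only in libraries that had no part in the choice. Tiles were chosen by the rule in the 6 libraries of one time point and tested in the 6 libraries of the other, which came from different fish. The test was edgeR's quasi-likelihood F test on methylated and unmethylated reads, fitted over 494902 tiles with Benjamini-Hochberg adjustment over all of them, and calls are those with an adjusted p under 0.05.

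In the T1 libraries 1217 tiles (0.246%) met the rule. In the T4 libraries their levels were 72.9% ± 0.00242 in the pituitary, against 43.0% ± 3.17 in the ovary and 38.0% ± 0.910 in the liver (SD, n = 2 each). The gap had a median of 31.6 points in the libraries that chose the tiles and 25.5 points in the T4 libraries, where it was above 0 in 1206 tiles (99.1%) and at least 25 points in 628 (51.6%). Over all tiles the gap in the T4 libraries was above 0 in 37.3% and at least 25 points in 0.193%. At T4 the pituitary was called higher than the liver in 1038 of the 1217 tiles (85.3%), beside a background of 2.43% of all tiles. It was called higher than the ovary in 924 (75.9%), beside 5.67%, and higher than both in 839 (68.9%), beside 0.747%. None was called lower than either tissue.

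The choice in the T4 libraries gave 958 tiles (0.193%). In the T1 libraries these had 74.1% ± 0.574 in the pituitary, against 34.3% ± 2.60 in the ovary and 38.8% ± 1.30 in the liver (SD, n = 2 each). The median gap was 31.2 points in the choosing libraries and 29.6 points in the T1 libraries, where it was above 0 in 951 tiles (99.3%) and at least 25 points in 628 (65.6%). At T1 the pituitary was called higher than the liver in 783 of the 958 tiles (81.7%), beside 2.56% of all tiles. It was called higher than the ovary in 839 (87.6%), beside 8.12%, and than both in 721 (75.3%), beside 0.883%. Since libraries of different tissues partly shared fish, the libraries in each test were not all independent. A term for the replicate number moved no count by more than 1.5 times. By the titles the same number stands for different fish in some tissues, so this term cannot account for shared fish.

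The 2 choices overlapped in 628 tiles, which is 51.6% of those chosen at T1 and 65.6% of those chosen at T4. All 628 were among the 1029, because a mean over both time points passes when both do. Of the others among the 1029, 253 passed at T1 alone and 114 at T4 alone, and 34 (3.30%) passed at neither time point but only in the mean over both.

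**Figure D3:**
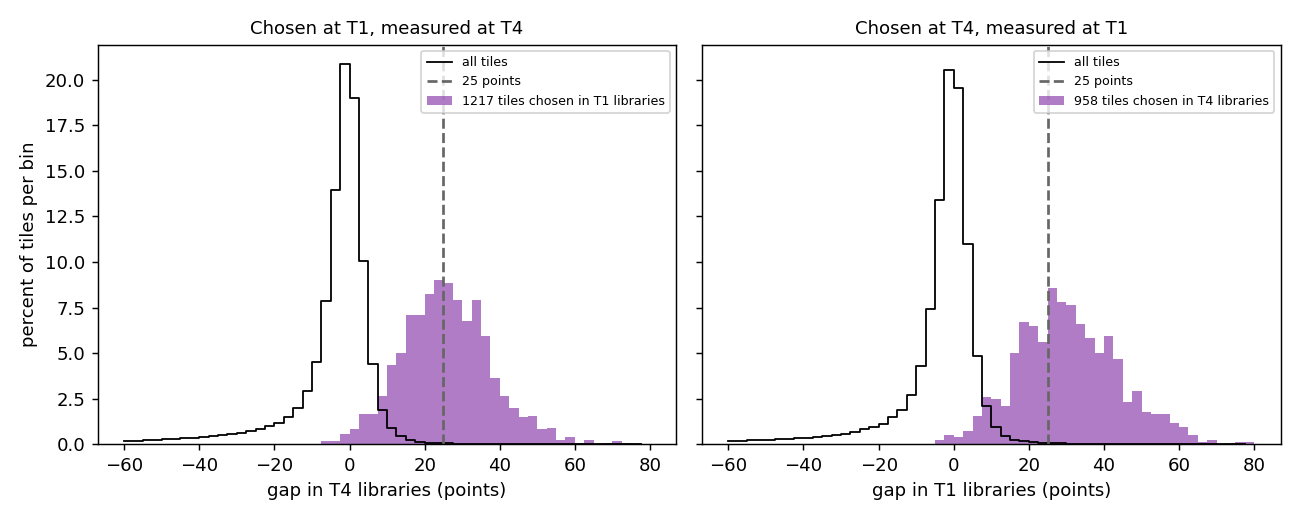
Gap (points) between the pituitary and the higher of the other tissues in libraries that did not choose the tiles, as percent of tiles per 2.5-point bin. Left, 1217 tiles chosen at T1 and measured at T4 (median 25.5 points). Right, 958 tiles chosen at T4 and measured at T1 (median 29.6 points). The black outline is all tiles and the dashed line marks 25 points.

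A second set of values that the rule had not used came from cytosines in the same tiles that were missing from at least 1 library, taken where at least 2 libraries of every tissue listed them. There were 2939 of them in 829 tiles, with mean levels of 71.8% in the pituitary, against 48.1% in the ovary and 50.5% in the liver. The gap was above 0 in 2111 of them (71.8%) and at least 25 points in 973 (33.1%). The pituitary level was thus similar to that of the cytosines used, and the ovary and liver levels were higher. These cytosines lie in the same reads and fish as the others, so they are given with no test. The shares among such cytosines in other tiles were not computed, and a level can rest on 2 libraries of a tissue. The shares here therefore have no background beside them.

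Within the tiles, the 5074 common cytosines mostly followed their tile. Taken singly, 66.3% had a gap of at least 25 points and 94.8% a gap above 0, against 0.429% and 37.4% of all common cytosines. Every cytosine had a gap of at least 25 points in 197 tiles, and every cytosine had a gap above 0 in 820. In the other 209 tiles at least 1 cytosine did not follow. These are the cytosines that chose the tiles, so nothing is read from the contrast with all cytosines. The common cytosines of a tile spanned a median of 186 bp. Both strands of 1 CpG were listed in 31 pairs, and both members of the pair had a gap above 0 in 29.

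Of the 1029 tiles, 985 (95.7%) had no other pituitary-high tile adjoining them, 38 formed 19 pairs and 6 formed 2 runs of 3. Most adjoining windows had fewer than 3 common cytosines and could not be scored. The adjoining window was scored for 286 tiles on the side of lower coordinates and for 282 on the other side. On each side 23 of the scored windows were pituitary-high, beside 0.208% of all tiles. Both counts come from the same adjoining tiles, seen once from each side, and are 1 result. The levels of neighbouring tiles below include these and other tiles that the rule chose. In the adjoining tile on the side of lower coordinates the levels were 73.1% in the pituitary, against 63.8% in the ovary and 67.7% in the liver, and on the other side 72.0% in the pituitary, against 61.5% in the ovary and 66.7% in the liver. From the next tile outwards the pituitary differed from the mean of the other tissues by 1.07 points or less on either side, up to 5 tiles away. Taken in bins of 250 bp from the centre, the pituitary stayed between 68.2% and 80.4% over 5 kb to each side. The ovary and the liver dipped to 36.0% and 35.7% inside the tile and were back to 70.9% and 75.6% at 1.5 to 1.75 kb on the side of higher coordinates. The levels inside the tile are those that chose it, and the lines are averages. In the 55 tiles with the lowest ovary and liver levels the mean pituitary level in the tile was 48.1%.

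**Figure D4:**
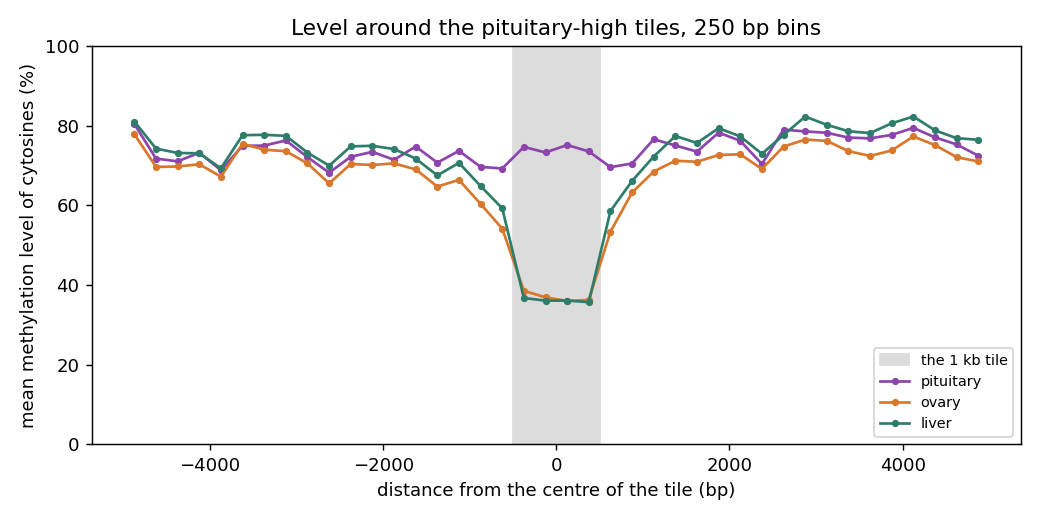
Mean methylation level (%) of common cytosines by distance from the centre of the pituitary-high tiles, in 250 bp bins, for the 3 tissues. The grey band is the chosen tile. The pituitary line stays between 68.2% and 80.4%, and the ovary and liver lines dip inside the band and return within about 1.5 kb.

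The longest runs named were the 2 runs of 3 tiles and 3 of the 19 pairs, which are equal in length. Both runs of 3 tiles were partly methylated outside the pituitary. At ssa15:70325001-70328000 the 3 tiles had pituitary levels of 72.0%, 79.6% and 67.4%, ovary levels of 25.9%, 22.3% and 42.2% and liver levels of 18.9%, 26.5% and 27.3%. At ssa10:76997001-77000000 the pituitary levels were 78.0%, 80.7% and 89.2%, the ovary levels 51.5%, 42.9% and 38.3% and the liver levels 45.8%, 47.8% and 55.5%. The last tile of the run on ssa15 overlapped between tissues, since 1 ovary library reached 66.7% while the lowest pituitary library was at 59.7%.

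The other 3 runs named were pairs of adjoining tiles. The levels outside the pituitary were alike in the 2 tiles on ssa10 and differed most between the 2 tiles on ssa13. The 3 pairs, of 19 in all, held tiles with gaps of 76.8, 61.1 and 67.4 points. The median gap of all pituitary-high tiles was 31.4 points, so these pairs do not stand for the others. At ssa10:100611001-100612000, the tile with the largest gap of all, the pituitary had 74.4% and 85.2% at T4 and 79.0% and 88.0% at T1. The ovary had 6.93% and 5.43% at T4 and 5.19% and 1.90% at T1, and the liver had 4.31% and 1.19% at T4 and 7.48% and 2.26% at T1. It had 4 common cytosines and was therefore not among the 20. The adjoining tile, ssa10:100612001-100613000, had 71.8% ± 4.65 in the pituitary, against 6.95% ± 3.90 in the ovary and 3.69% ± 2.74 in the liver (SD, n = 4 each). At ssa25:16109001-16110000, next to a tile described above, the means were 63.2% ± 10.5 in the pituitary, against 1.25% ± 2.50 in the ovary and 2.06% ± 2.62 in the liver (SD, n = 4 each). At ssa13:31867001-31869000 the first tile had 70.04% in the pituitary, against 17.2% in the ovary and 34.3% in the liver, and the second had 73.8% in the pituitary, against 6.40% in the ovary and 4.59% in the liver.

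On a larger scale a few stretches held several of the tiles. Linked within 100 kb, the tiles formed 921 sets, of which 841 were single tiles, and the largest held 9 tiles over 129000 bp at ssa28:21301001-21430000. The tiles in it ranged in the pituitary from 46.2% (ssa28:21396001-21397000) to 81.9% (ssa28:21415001-21416000). In the same tiles the ovary had 20.01% and 26.3%, and the liver had 12.5% and 12.8%. The tile of this stretch with 12 common cytosines, ssa28:21301001-21302000, had 63.7% and 58.0% in the pituitary at T4 and 64.1% and 62.3% at T1. It had 28.4% and 22.4% in the ovary at T4 and 21.8% and 27.3% at T1, and 19.2% and 18.7% in the liver at T4 and 22.7% and 24.6% at T1. All pituitary libraries lay above all others, the ovary and liver libraries overlapped, and between the time points the liver libraries did not overlap. The stretch was singled out after its values were seen, and the tiles ssa28:21989001-21990000 and ssa28:22890001-22891000 named above lie on the same chromosome outside it.

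Another pituitary-high tile lay within 5 tiles of 69 of the 1029 (6.71%), against 0.483% of all tiles. For the 55 tiles with ovary and liver both under 10% the share was 25.5%, and for the 786 with the higher of the ovary and liver at 30% or more it was 3.94%. A tile under 10% in all 3 tissues lay within 5 tiles of 63 (6.12%), against 2.72% of all tiles. This share was 18.2% in the class under 10% and 3.56% in the class at 30% or more. A tile with the ovary at least 25 points below both other tissues lay within 5 tiles of 8.26%, against 4.76% of all tiles, and one with the liver so low within 5 tiles of 3.30%, against 0.829%. For tiles low in the pituitary the shares were 5.35% and 5.31%. Tiles high by the same rule in the liver or in the ovary also had others of their own kind within 5 tiles, in 17.0% and 30.0%. A tile under 10% in all 3 tissues lay near 2.06% and 10.7% of them, in the same order. One low in the ovary lay near 8.44% and 4.45%, and one low in the liver near 0.733% and 2.83%. These neighbour shares are descriptions without a test, and neighbouring tiles share base composition and reads.

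The tiles were found on all 29 chromosomes. They made up 0.118% of the tiles of ssa21, the lowest share, and 0.348% of those of ssa26, the highest, and 96.1% lay on chromosomes, against 92.2% of all tiles. Of those on chromosomes, 12.6% lay in the first or last 10% of the chromosome, against 16.7% of all tiles. They had fewer CpG cytosines than other tiles, with a median of 4 common cytosines against 5, and 10 or more in 5.35% against 13.9%. Counting cytosines listed in any library, the medians were 11 and 14. The median coverage per cytosine was 22.6 reads against 22.8 over all tiles, and none exceeded 3 times the median coverage, against 1.10% of all tiles. Exactly 3 common cytosines lay in 33.5% of them, against 23.7% of all tiles.

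The same rule turned to the other tissues gave other numbers. The ovary was at least 25 points above both others in 494 tiles and the liver in 9277. The pituitary was at least 25 points below both others in 11716 tiles, the ovary in 10158 and the liver in 1869. Tiles in which the pituitary stood out by low methylation thus outnumbered those in which it stood out by high methylation, which is a count with no test.

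Whether the tiles changed with the onset of maturation was asked by testing T4 against T1 within each tissue, which entered the rule only as a mean over both time points. A tile high at one time point alone could still be chosen, and 253 met the rule at T1 alone and 114 at T4 alone. All 1029 tiles were among the 494902 tested. In the pituitary 1 of the 1029 passed at an adjusted p under 0.05, and it was lower at T4, beside 0.0424% of all tiles that passed and 0.0244% that passed with a lower level. In the ovary 5 passed, 4 of them higher at T4, beside 0.098% of all tiles that passed and 0.0758% that passed with a higher level. In the liver none passed, beside 0.0378%, with 111 at an unadjusted p under 0.05, and limma also called none there. Limma called none of the tiles in the ovary, so that each ovary call was lost, and called 1 in the pituitary and 1 over all tissues. Of all tiles limma called 8 in the pituitary, 10 in the ovary, 10 in the liver and 517 over all tissues. The counts of all tiles with edgeR were 210, 485, 187 and 2395 in the same order. In a comparison over all tissues 6 passed, 4 of them higher at T4, beside 0.484% of all tiles and 0.234% with a higher level. By the titles the 6 libraries of a time point came from 3 fish. Across the 149690 tiles at 20% to 80%, replicate differences correlated between tissues. The correlation was 0.290 between liver and pituitary at T1 and 0.222 between ovary and pituitary at T4. The other pairs of tissues within a time point were lower, at 0.0924 to 0.135. Across the 1029 tiles the first 2 values were 0.144 and 0.0529. The test over all tissues counted tissues of 1 fish as separate replicates, so its p-values are too small. In all, 9 different tiles passed at least 1 of these tests, beside 0.542% of all tiles. With 2 libraries per group single libraries decided these counts, and the number of calls among all tiles changed as well. A fit without a library leaves 1 library in its group, so nothing is read from the counts of such fits.

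The tile that passed in the pituitary was ssa17:49153001-49154000. The pituitary had 0.699% and 0.955% at T4 and 81.9% and 71.5% at T1 (log2 odds ratio -8.54, edgeR adjusted p = 2.79e-08). The ovary had 0.656% and 0% at T4 and 19.8% and 14.9% at T1 (log2 odds ratio -5.66, edgeR adjusted p = 0.000715), and it was also the ovary tile with the smallest p. The liver had 1.82% and 0.778% at T4 and 8.03% and 3.43% at T1. In every tissue both T4 libraries were below both T1 libraries, and over the 3 tissues the log2 odds ratio was -5.43 (edgeR adjusted p = 1.39e-08). The tile was nearly unmethylated in all 6 libraries of T4, so it was pituitary-high only through the T1 fish, and its pituitary test is not independent of the choice. The ovary library at 0% allowed a level of up to 1.28%. It held 14 common cytosines over 812 bp and 234 to 417 reads per library. Each of the 14 was at 56.2% or more in the pituitary at T1 and at 7.13% or less at T4. The nearest listed tile on the side of lower coordinates, ssa17:49151001-49152000, had 90.3% at T4 and 90.5% at T1 in the pituitary. The 2 fish of T4 and the 2 of T1 are different animals, and whether sequence differences between them bear on this tile was not tested.

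The next pituitary tiles by p did not pass. At ssa04:13919001-13920000 the pituitary had 47.7% and 85.9% at T4 and 98.8% and 93.2% at T1 (log2 odds ratio -3.66, edgeR adjusted p = 0.198). At ssa06:2839001-2840000 it had 36.0% and 37.7% at T4 and 54.5% and 88.2% at T1 (log2 odds ratio -2.08, edgeR adjusted p = 0.411). Neither overlapped between the time points. The liver tile with the smallest p, ssa03:10825001-10826000, had 28.6% and 37.1% in the liver at T4 and 74.0% and 56.2% at T1 (log2 odds ratio -1.95, edgeR adjusted p = 0.0975). The pituitary libraries of single tiles were mostly alike. Their range was over 40 points in 8 of the 1029, among them the tiles named on ssa17, ssa04 and ssa06. It was within 20 points in 888, with a median of 11.3 points, against 7.58 points over all tiles. In the ovary the median range was 19.0 points and in the liver 14.6 points.

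The 4 tiles that were higher at T4 in the ovary had there about the same low level in both T1 fish. All but the tile on ssa08 fell outside the naming rule and were taken because they passed. None passed with limma, which called 10 of all tiles in the ovary. At ssa11:57462001-57463000 the ovary had 70.7% and 66.2% at T4 and 27.3% and 30.4% at T1 (log2 odds ratio 2.42, edgeR adjusted p = 0.00969). At ssa28:34488001-34489000 it had 43.4% and 48.9% at T4 and 11.5% and 13.6% at T1 (log2 odds ratio 2.59, edgeR adjusted p = 0.0204). At ssa08:21553001-21554000, one of the 20 above, it had 55.7% and 46.8% at T4 and 20.6% and 19.0% at T1 (log2 odds ratio 2.07, edgeR adjusted p = 0.0353). At ssa12:44019001-44020000 it had 61.9% and 61.8% at T4 and 24.0% and 25.5% at T1 (log2 odds ratio 2.30, edgeR adjusted p = 0.0371). In none of the 4 did the ovary libraries of T4 and T1 overlap. The low ovary levels of T1 also entered the choice of these tiles, so their ovary tests are not independent of it. By the T4 libraries alone the tiles on ssa11 and ssa12 missed the rule. Their pituitary and ovary means at T4 were 79.4% and 68.4% on ssa11 and 85.2% and 61.8% on ssa12. At the tiles on ssa28, ssa08 and ssa12 every pituitary library lay above every ovary library, while on ssa11 one ovary library of T4 (70.7%) was above 1 pituitary library of T1 (67.9%).

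Over the 3 tissues together, where libraries of 1 fish count as separate, the tiles that passed besides those on ssa17 and ssa11:57462001-57463000 were described for the same reason. At ssa12:51762001-51763000 the pituitary had 85.6% and 70.1% at T4 and 69.3% and 50.5% at T1, the ovary 91.8% and 34.3% at T4 and 8.33% and 2.82% at T1, and the liver 37.7% and 53.1% at T4 and 5.48% and 10.9% at T1 (log2 odds ratio 3.07, edgeR adjusted p = 0.00503). In every tissue both libraries of T4 were the higher ones, although those of the ovary were far apart. This tile also missed the rule by the T4 libraries alone, with means of 77.9% in the pituitary and 63.0% in the ovary. It was chosen through the low T1 levels, so its test is not independent of the choice. At ssa11:78906001-78907000 the log2 odds ratio was 1.21 (edgeR adjusted p = 0.0393), with 90.1% and 81.7% in the pituitary at T4 and 68.2% and 63.4% at T1. At ssa12:64703001-64704000, one of the 20, it was -1.12 (edgeR adjusted p = 0.0417), with 67.1% and 79.4% in the pituitary at T4 and 84.6% and 92.6% at T1. At bases 2001-3000 of the unplaced scaffold AGKD04022162.1 it was 1.31 (edgeR adjusted p = 0.0445), with 72.2% and 63.3% in the pituitary at T4 and 58.0% and 70.1% at T1. The pituitary libraries of the last tile overlapped between the time points, and its ovary had 34.7% and 30.5% at T4 and 17.3% and 7.63% at T1.

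The tiles as a group were more methylated in the ovary libraries of T4 than in those of T1. The mean was 40.6% ± 3.35 at T4 and 33.4% ± 3.02 at T1 (SD, n = 2 each), a difference of 7.17 points, against 0.648 points over all tiles. In the pituitary the means were 74.2% ± 0.0474 at T4 and 75.3% ± 0.632 at T1, a difference of -1.03 points against -0.541 over all tiles, and in the liver 35.4% ± 0.921 at T4 and 36.9% ± 1.73 at T1, a difference of -1.49 points against -0.119 (SD, n = 2 each). Both ovary libraries of T4 lay above both of T1 in 474 of the 1029 tiles (46.1%), against 20.1% of all tiles, and below both in 100 (9.72%), against 17.4%. At an unadjusted p under 0.05, 264 tiles (25.7%) were higher at T4 in the ovary, beside 5.14% of all tiles, and 27 (2.62%) were lower, beside 3.11%. In the pituitary 26 (2.53%) were higher at an unadjusted p under 0.05, beside 2.14% of all tiles, and 42 (4.08%) lower, beside 3.55%. In the liver 35 (3.40%) were higher, beside 2.5%, and 76 (7.39%) lower, beside 2.69%. The ovary difference was between 4.80 and 9.54 points when each of the 4 ovary libraries was left out in turn.

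A higher ovary level at T4 was also seen in other tiles. The 10158 tiles low in the ovary alone differed by 10.6 points between T4 and T1 in the ovary, and the 9277 tiles high in the liver alone by 8.78 points. Both ovary libraries of T4 lay above both of T1 in 57.3% of the former and 54.2% of the latter. Grouped by ovary level, the pituitary-high tiles differed by 0.0711 points where the ovary was under 10% (77 tiles), by 3.93 points from 10% to under 20% (91 tiles) and by 8.25 points from 20% to under 30% (172 tiles). Other tiles of the same ovary level differed by 0.462, 2.95 and 6.86 points in these classes. From 30% to under 40% the difference was 10.1 points in the 202 pituitary-high tiles and 7.90 points in other tiles, and from 40% to under 50% it was 7.69 points in 235 and 6.13 points in others. From 50% to under 60% it was 7.21 points in 199 and 3.90 points in others. From 60% to under 70% it was 6.17 points in 53 and 2.01 points in others. The share of tiles with both ovary libraries of T4 above both of T1 was higher in the pituitary-high tiles in every class. It was 43.8% against 42.8% of other tiles from 40% to under 50%, and 41.5% against 27.7% from 60% to under 70%. The classes use the ovary level averaged over both time points, which by itself keeps tiles with a large difference out of the lowest class, so the order of the classes is a description. What share of the difference came from a changed mixture of ovarian cells was not tested.

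**Figure D5:**
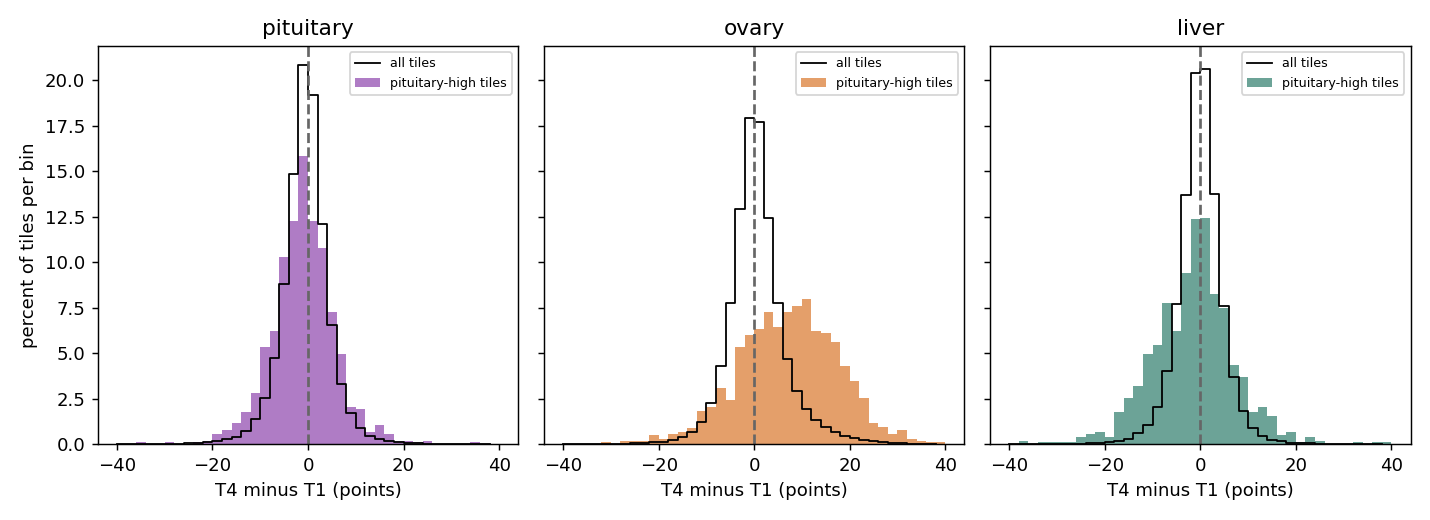
Difference between the time points (T4 minus T1, points) of the 1029 pituitary-high tiles (coloured bars) and of all tiles (black outline) in the pituitary, the ovary and the liver, as percent of tiles per 2-point bin. The mean differences of the pituitary-high tiles are -1.03 points in the pituitary, 7.17 points in the ovary and -1.49 points in the liver.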

How the data were processed

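The authors trimmed the reads with Trim Galore (version 0.5), aligned them with BS-Seeker2 (version 2.1.8) and Bowtie2 to ICSASG_v2, removed duplicates with Picard and called methylation with BS-Seeker2. The deposited values are raw counts, all reads and methylated reads of each CpG cytosine with at least 10 reads, without normalisation, so a tile low in CpG or depth is left out. Strands were kept separate. Duplicate reads were removed without molecular identifiers. Groups came from the library labels. Counts were summed per tile over the 3563979 cytosines common to all 12 libraries.

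Tests used edgeR 4.0.16 (library effects and group terms, common dispersion from 20000 tiles), with limma 3.58.1 on log2 ratios with 1 read added as the alternative. Tiles with no methylated read in any library (212) were not tested. Each group had 2 libraries from separate fish, so the spread behind the p-values was pooled over groups. For T4 against T1 it was pooled over the 6 groups of tissue and time point. For the tissue tests it was pooled over the 3 tissues of a time point. A p-value for a single tissue therefore does not measure the spread of its own fish alone. Named tiles were the 20 with the largest gap, 5 of the longest runs and those nearest the threshold. Those with the smallest p for T4 against T1 were also named (3 in the pituitary, 1 in each other comparison). The runs were the 2 of 3 tiles and 3 of the 19 pairs of equal length. Gene lists were not applied, since no annotation of the assembly was used. The tiles and lists were chosen with earlier results of these data known. Replicate numbers did not pair T4 with T1. Simulated data were used to test the fit.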

Additional observations from a re-analysis of the deposited data

Results flagged for a closer look

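The mean difference between T4 and T1 over the 1029 pituitary-high tiles had opposite signs in the ovary and the pituitary. Both ovary libraries of T4 were above both of T1, and both pituitary libraries of T4 were below both of T1. The ovary difference (7.17 points) minus the pituitary difference (-1.03 points) was 8.20 points. Over all tiles the signs and the order of the libraries were the same, with differences of 0.648 points in the ovary and -0.541 points in the pituitary. The difference between the tissues was not tested. Groups of 2 libraries were too small to look for single outlying libraries.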

How the results depend on the processing

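The number of pituitary-high tiles was 441 of 286136 with at least 5 cytosines per tile and 55 of 69045 with at least 10. With at least 20 reads per cytosine it was 239 of 98572, and 166 of the 239 were among the 1029. Fewer tiles were thus considered than the 495114 of the rule. At 20 points 1749 tiles qualified and at 30 points 587. The number stayed within 1.5 times of 1029 with unweighted levels and with shifted, shorter or longer tiles (745 to 1207). The same held without any 1 library (955 to 1086).

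At tiles chosen in T1 libraries and tested at T4, calls against the liver and the ovary were 479 and 434 with at least 5 cytosines and 193 and 185 with at least 20 reads. At tiles chosen in T4 libraries and tested at T1 they were 351 and 370 with at least 5 cytosines and 147 and 152 with at least 20 reads. Fewer tiles were tested under these settings, 523 and 212 of the first choice and 390 and 164 of the second. Of all tiles at T4, 7474 and 18772 of 286077 were called with at least 5 cytosines and 3209 and 9192 of 98572 with at least 20 reads. Of all tiles at T1 the calls were 8159 and 26721 with at least 5 cytosines and 3634 and 12402 with at least 20 reads. The replicate block gave 1063, 972, 822 and 869 calls in the same order. Among all tiles it gave 13996, 32130, 15182 and 45884. With limma the shares called were lower than with edgeR. Limma called 867 (71.2%) against the liver and 677 (55.6%) against the ovary of the 1217 tiles tested at T4. Of the 958 tiles tested at T1 it called 666 (69.5%) and 757 (79.0%). Among all tiles limma called 7771 and 13618 at T4 and 7748 and 26007 at T1. Tests without a library rest on 1 library in a tissue, and their calls are not listed.

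For T4 against T1, limma called 0 of the pituitary-high tiles in the ovary and 1 over all tissues. Of all tiles limma called 10 in the ovary and 517 over all tissues. With at least 20 reads, 0 passed in the pituitary, 2 in the ovary and 1 over all tissues, of 188 tiles tested. Of all tiles 34, 263 and 579 passed in the same order. The replicate block called 14 in the ovary and 10 over all tissues. Of all tiles it called 1044 in the ovary and 3466 over all tissues, beside 485 and 2395 without the block. The replicate numbers are those of different fish at T4 and T1, so the block is no paired analysis. Across the 149690 tiles at 20% to 80%, the replicate differences of the 2 time points correlated at -0.0578 in the ovary. Leaving out a library gave 1 to 2 calls in the pituitary, 1 to 8 in the ovary, 0 to 1 in the liver and 3 to 9 over all tissues. Each fit without a library left 1 library in a group, and the number of calls among all tiles changed as well. Nothing is read from the counts of these fits. The cause of the shifts between settings was not tested.

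The mean T4 minus T1 difference, whose alternatives were chosen after seeing the data, was -1.54 points in the pituitary with at least 5 cytosines. Leaving out a library gave -1.47 to -0.58 points in the pituitary, 4.80 to 9.54 in the ovary and -2.71 to -0.26 in the liver. The pituitary exceeded the mean of the other tissues by 2.05 points in flanks of 5 kb and by 4.38 points in flanks of 2 kb. The flanks include other pituitary-high tiles. Depth limits single tiles, since a tile of 3 cytosines can rest on 30 reads in a library.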
